A study of Homo sapiens with 6 samples.

Results

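The genes described here encode the subunits of RNA polymerases I, II and III and the mitochondrial RNA polymerase. They were taken as every gene symbol that begins with POLR1, POLR2 or POLR3 followed by a letter from A to M, together with POLRMT, which gave 32 of the 23180 gene symbols in the table. For each symbol, the transcript with the highest summed count in the 6 samples stood for the gene. Of the 32 genes, 3 encode subunits of polymerase I alone, 2 are shared by polymerases I and III, 5 are shared by all 3 nuclear enzymes, 11 carry polymerase II names, 10 belong to polymerase III, and 1 is POLRMT.

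RNA-Seq was performed on A549 cells, an established human lung adenocarcinoma line, harvested 3 days after transfection. One group received siControl and the other received siKMT9α#1, an siRNA at 65 nM directed against KMT9α, the catalytic subunit of the histone methyltransferase KMT9, whose gene symbol is N6AMT1. All cells were wild type at passage 11, each group held 3 samples, and a single siRNA against a single cell line was sequenced. The labels call the samples of a group biological replicates and give all of them the same passage, but whether they were separate cultures is not given in the sources used here, so the p-values measure the spread between these samples only.

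The nuclear polymerases share a common architecture. In each, the largest and the second largest subunits form the active centre, a group of small subunits is common to all, and peripheral subunits make contact with initiation factors, melt the promoter or cleave stalled transcripts. Polymerase I transcribes the large ribosomal RNA precursor in the nucleolus, polymerase II transcribes messenger RNA precursors and many non-coding RNAs, and polymerase III transcribes transfer RNAs, 5S ribosomal RNA and other short RNAs. POLRMT is a single-chain enzyme related to phage polymerases that transcribes the mitochondrial genome. POLR2A, the largest subunit of polymerase II, was the gene to which the study normalised its qRT-PCR.

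Total counts over the represented transcripts were between 13740098 and 19832394.5 per sample, and the 32 genes together took 0.189 to 0.207% of them. All 32 passed the filter on low counts that left 13877 genes for testing, 28 of them were at or above 10 CPM (a gene's count relative to the TMM-scaled size of its library) in siControl, and their counts ranged from 15 to 3940.5. The targeted gene N6AMT1 fell from 10.8 ± 0.622 CPM to 3.15 ± 0.246 CPM (SD, n = 3), a log2 fold change of -1.77 (SE 0.12, adjusted p = 1.42e-10 by edgeR's quasi-likelihood test). Epithelial markers summed to 3210 to 3570 CPM in siControl and 1720 to 1810 CPM in siKMT9α#1, chiefly from KRT8 and KRT18, and 4 of the 5 fell while CDH1 rose. The sum of 5 alveolar and lung markers was 1.35 to 2.13 CPM in siControl and 0.73 to 1.09 CPM in siKMT9α#1, chiefly from NAPSA, which fell, and that of 4 fibroblast markers was 4.29 to 4.93 CPM and 2.96 to 3.55 CPM, chiefly from COL1A1, which fell. SFTPA1, COL1A2 and the T cell marker CD3E were at 0 in every sample, the endothelial sum reached at most 0.802 CPM, and the leukocyte sum of 77.7 to 84.6 CPM in siControl and 27.1 to 28.6 CPM in siKMT9α#1 came almost entirely from CD68. The part of the marker changes in the results below was not tested, and in bulk RNA fewer cells of a kind and less RNA per cell cannot be told apart.

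The stretches of DNA just before the transcripts of POLR3A and POLR3B are shown because these genes encode the largest and the second largest subunits of the same enzyme, yet POLR3B was the gene with the largest fall among the 32 while POLR3A did not pass the test. Both are read 5′ to 3′ on the strand of the gene, end at the base before the deposited transcript start, and come from RefSeq's promoter windows matched to GRCh37 (hg19). Capitals mark every match to the motifs searched for.
POLR3A, chr10:79789299-79789523, minus strand: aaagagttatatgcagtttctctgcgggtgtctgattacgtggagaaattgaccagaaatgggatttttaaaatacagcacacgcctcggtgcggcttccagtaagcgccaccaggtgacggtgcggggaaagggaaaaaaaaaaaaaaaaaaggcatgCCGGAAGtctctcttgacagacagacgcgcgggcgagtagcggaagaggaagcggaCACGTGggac
POLR3B, chr12:106751276-106751435, plus strand: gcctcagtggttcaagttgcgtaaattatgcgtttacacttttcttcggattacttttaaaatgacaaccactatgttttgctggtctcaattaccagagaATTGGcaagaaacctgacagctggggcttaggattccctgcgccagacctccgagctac
The POLR3A stretch is 225 bases long with a GC content of 50.7%. It holds an ETS-type motif, CCGGAAG, that begins 66 bases before the start, and an E-box, CACGTG, that begins 10 bases before it. The POLR3B stretch is 160 bases long with a GC content of 45.0% and holds a CCAAT box on the opposite strand, read here as ATTGG, 59 bases before the start.

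RefSeq's promoter table held windows for 22 of the 32 genes, and the 250 bases upstream of each start were searched on both strands for 5 motifs. CCGGAAG was present for 8 of the 22 genes (36.4%) and in 8.52% of all 35116 windows, and the NRF1-type motif, GCGCA followed directly by its reverse complement TGCGC, for 4 genes (18.2%; POLR2F, POLR2H, POLR3B and POLRMT) and in 1.03% of all windows. The match for POLR3B lies outside the stretch printed above. A gene can have several windows, so that these shares are descriptions only. CCAAT was present for 6 genes (27.3%, against 32.0% of windows), CACGTG for POLR3A and POLR3C (9.09%, against 6.34%), and TATAAA for POLR2M alone (4.55%, against 10.7%). A match is a run of letters, and binding of a factor was not measured.

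Upon knock-down of KMT9α, the polymerase subunits did not move together. Of the 32 genes, 22 (68.8%) had an adjusted p under 0.05 in edgeR's quasi-likelihood test, against 75.6% of all genes tested. Of these, 10 were higher and 12 lower, while 37.1% of all genes tested were higher and 38.5% lower. In the middle of the distribution, the 32 genes had a log2 fold change of -0.09 (median) and all genes -0.01. With scaling by library size alone, 8 of the 32 were higher and 18 lower (31.4% and 44.8% of all genes, 76.2% together), and with GC and length offsets 11 were higher and 11 lower (39.4% and 37.2% of all genes, 76.6% together). The subunits also changed less in size than the typical gene, with a median absolute log2 fold change of 0.30 against 0.47 and an SD of 0.43 against 0.89. All genes were not matched to the 32 for expression level, and their median SE was 0.077 against 0.063 for the 32. For 20 of them (62.5%) the 3 siKMT9α#1 samples lay wholly above or wholly below the 3 siControl samples, 10 in each direction, which was the case for 77% of all genes tested.

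**Figure D1:**
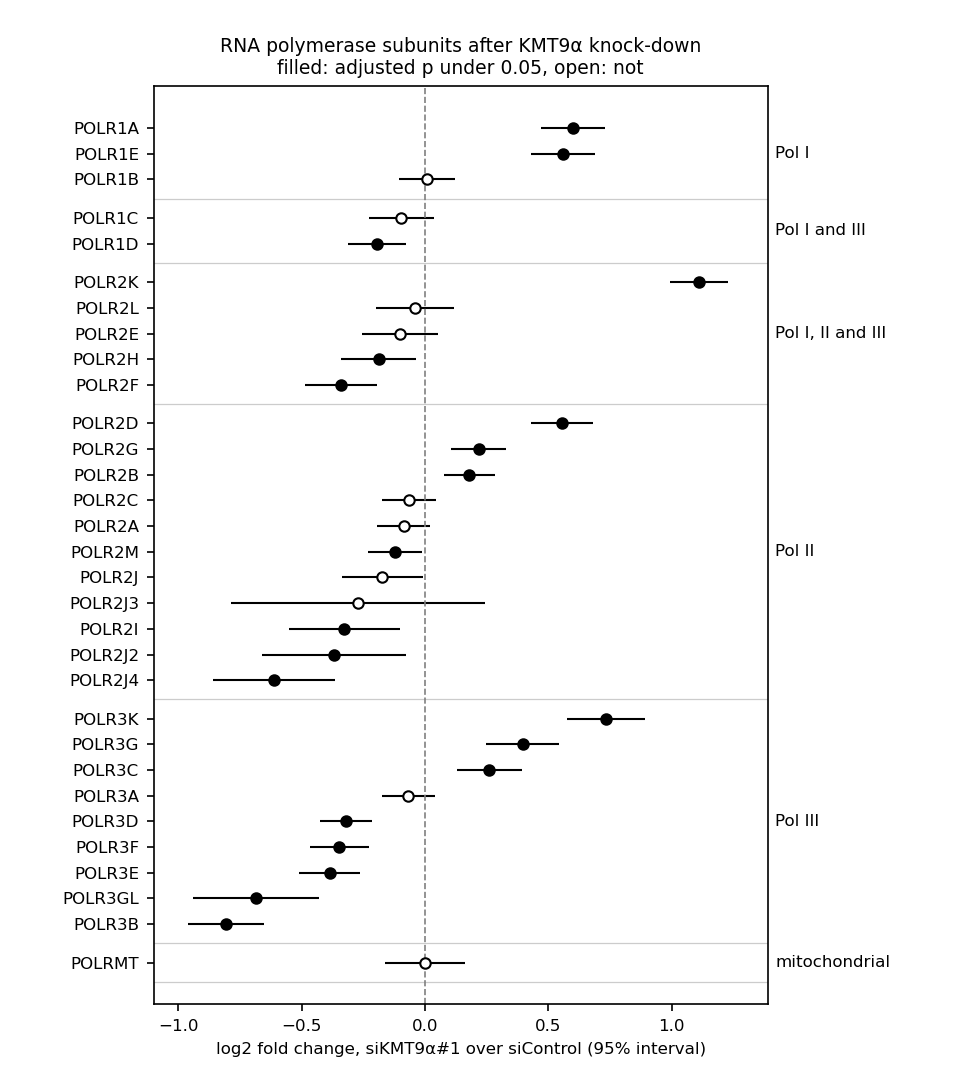
Log2 fold change of 31 of the 32 genes, siKMT9α#1 over siControl, with its 95% interval on the horizontal axis, grouped by polymerase; filled points had an adjusted p under 0.05 and open points did not. The values run from -0.81 for POLR3B to 1.11 for POLR2K, and genes lie on both sides of 0 among the subunits of all 3 enzymes, those of polymerase II and those of polymerase III.

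The study applied a stricter threshold, for which the unadjusted p had to be below 1e-08 and the log2 fold change larger than 0.26 in either direction. Here the threshold was applied to edgeR's quasi-likelihood test with 1 transcript per gene. In that fit, 4 of the 32 genes (12.5%) and 24.2% of all genes passed. Of the 4, 3 were higher (13.5% of all genes), POLR2K and POLR3K among them, and POLR3B was lower (10.7% of all genes). With library size alone 2 genes passed, 1 in each direction (24.3% of all genes, 10.9% higher and 13.4% lower), and with GC and length offsets 6 passed, 5 higher and 1 lower (33.2% of all genes, 18.3% higher and 14.9% lower). This count varied when single libraries were left out, in fits for which the share of all genes was not counted. It was 6 without siControl replicate 1, 1 without siControl replicate 2, 2 without siKMT9α#1 replicate 1, 1 without siKMT9α#1 replicate 2 and 5 without siKMT9α#1 replicate 3. With edgeR's likelihood-ratio test on all 6 samples, 9 of the 32 genes passed, 6 higher and 3 lower. The share of all genes was not counted for that test. The study's methods do not name the edgeR test used, and the paper reports more changed genes than passed here. Whether the study selected the same 4 genes was not tested.

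Subunits with POLR symbols were counted by enzyme, with shared subunits entered under each enzyme that holds them. The 4 polymerase I or III subunits that carry other symbols, described below, were left out, and both POLR3G and POLR3GL were counted. Of the 10 polymerase I subunits, 3 rose, 3 fell and 4 did not pass. For polymerase II, 4 of 12 rose, 3 fell and 5 did not pass. For polymerase III, which has the most subunits, 5 of 17 rose, 8 fell and 4 did not pass. Of all genes tested, 37.1% were higher and 38.5% lower, 75.6% together. The median log2 fold changes were -0.07, -0.08 and -0.10, but the same shared subunits enter more than 1 of these medians. Over the genes named for 1 enzyme alone, the medians were 0.56 for polymerase I (3 genes), -0.12 for polymerase II (11 genes) and -0.19 for polymerase III (10 genes). No test between the enzymes was run, since they share subunits.

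The catalytic core showed a different pattern in each enzyme. POLR1A, the largest subunit of polymerase I (hg19 chromosome 2, 86253451 to 86333278), had 33.6, 38.9 and 36.8 CPM in siControl and 55.6, 53.2 and 56.4 CPM in siKMT9α#1. All knock-down samples lay above all control samples, and the log2 fold change was 0.60 (SE 0.06, adjusted p = 4.78e-08), or 0.34 with offsets for GC content and length. POLR1B, its second largest partner, had 125, 122 and 122 CPM in siControl and 124, 133 and 115 CPM in siKMT9α#1. Here the groups overlapped, with a log2 fold change of 0.01 (95% interval -0.10 to 0.12, adjusted p = 0.890), and the sign turned to -0.18 (adjusted p = 0.00286) when offsets for GC content and length were fitted and to -0.10 with scaling by library size alone.

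In polymerase II, POLR2A (hg19 chromosome 17, 7387698 to 7417935) had 114, 120 and 119 CPM in siControl and 110, 105 and 117 CPM in siKMT9α#1. The highest knock-down sample lay within the control range, and the log2 fold change of -0.09 (SE 0.05, 95% interval -0.19 to 0.02, adjusted p = 0.130) did not pass. POLR2B, which closes the active centre of polymerase II opposite POLR2A, had 177, 162 and 168 CPM in siControl and 187, 188 and 198 CPM in siKMT9α#1. The groups did not overlap and POLR2B was higher by 0.18 on the log2 scale (SE 0.05, adjusted p = 0.00265), but 0.08 with an adjusted p of 0.164 under scaling by library size alone.

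In polymerase III, POLR3A, the largest subunit, had 109, 101 and 110 CPM in siControl and 99.0, 102 and 105 CPM in siKMT9α#1. The groups overlapped (log2 fold change -0.07, 95% interval -0.17 to 0.04, adjusted p = 0.235). POLR3B, its second largest partner (hg19 chromosome 12, 106751436 to 106903976), had 30.3, 29.9 and 28.3 CPM in siControl and 16.1, 16.2 and 17.9 CPM in siKMT9α#1. Every knock-down sample lay well below every control sample, and POLR3B had the largest fall of the 32 genes (log2 fold change -0.81, SE 0.07, adjusted p = 7.48e-09). With offsets for GC content and length, POLR3A passed at -0.35 (adjusted p = 4.96e-08) and POLR3B was at -0.92, and POLR3A also passed with library size alone (-0.17, adjusted p = 0.00439).

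**Figure D2:**
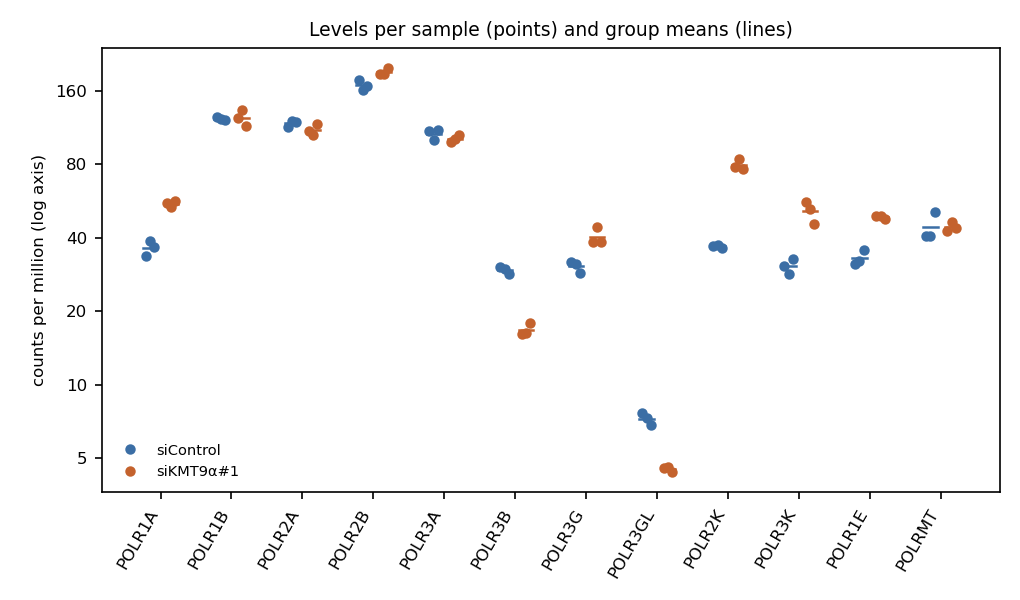
CPM of 12 of the genes in each of the 6 samples on a log axis; points are samples and short lines are group means, siControl in blue and siKMT9α#1 in orange. POLR3B lay at 28.3 to 30.3 CPM in siControl and 16.1 to 17.9 CPM in siKMT9α#1, while the groups overlapped for POLR1B, POLR2A, POLR3A and POLRMT.

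Ratios of the counts of 2 genes within a sample do not depend on how libraries were scaled, so the pairs of largest and second largest subunits were compared in this way. The log2 ratio of POLR3A to POLR3B was 1.86 ± 0.107 in siControl and 2.61 ± 0.050 in siKMT9α#1 (SD, n = 3), which takes the ratio from 3.62 to 6.09. The log2 ratio of POLR1A to POLR1B was -1.76 ± 0.128 in siControl and -1.17 ± 0.151 in siKMT9α#1, a difference of 0.59. For POLR2A to POLR2B it was -0.52 ± 0.102 in siControl and -0.79 ± 0.041 in siKMT9α#1, a difference of -0.27. The groups did not overlap in any of these pairs. With 3 samples against 3, the exact two-sided permutation test cannot go below p = 0.1, and it gave 0.1 for each of the 9 pairs computed, 0.1 also after Benjamini-Hochberg adjustment over the 9.

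**Figure D3:**
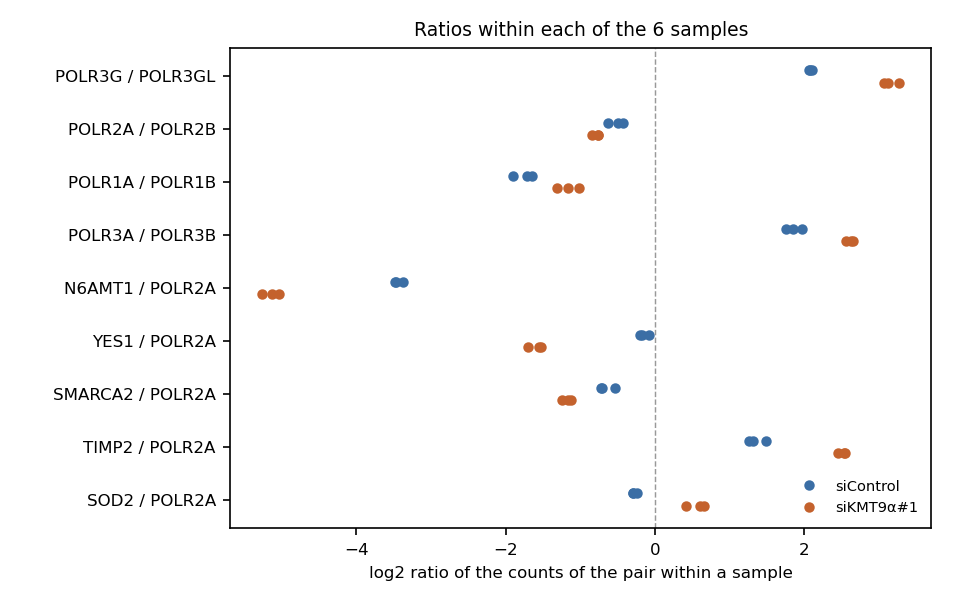
Log2 ratio of the counts of each of the 9 gene pairs within each of the 6 samples, siControl in blue and siKMT9α#1 in orange. The points of the groups do not overlap in any pair, and the ratio of POLR3G to POLR3GL lies at 2.06 to 2.10 in siControl and 3.07 to 3.27 in siKMT9α#1.

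Polymerase III contains 1 of a pair of alternative subunits, POLR3G or its paralog POLR3GL, which distinguish the forms of the enzyme found in proliferating or undifferentiated cells from the form present more widely. POLR3G had 31.8, 31.3 and 28.8 CPM in siControl and 38.4, 44.3 and 38.3 CPM in siKMT9α#1. It was higher in all knock-down samples (log2 fold change 0.40, SE 0.07, adjusted p = 4.55e-05). POLR3GL had 7.65, 7.29 and 6.81 CPM in siControl and 4.54, 4.60 and 4.39 CPM in siKMT9α#1. It was lower in all knock-down samples (log2 fold change -0.69, SE 0.12, adjusted p = 4.58e-05). The paralogs therefore moved apart, and the count ratio of POLR3G to POLR3GL went from 4.22 to 8.90, 2.11-fold higher (log2 2.08 ± 0.023 in siControl and 3.15 ± 0.101 in siKMT9α#1).

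The remaining subunits specific to polymerase III also split. POLR3K, the subunit needed for cleavage of the transcript and for termination, had 30.5, 28.5 and 32.8 CPM in siControl and 55.8, 52.3 and 45.6 CPM in siKMT9α#1. No sample of the groups overlapped (log2 fold change 0.73, SE 0.08, adjusted p = 3.6e-08). POLR3C, in the initiation subcomplex with POLR3F and POLR3G or POLR3GL, was higher by 0.26 (adjusted p = 0.000965). POLR3D and POLR3E, the pair related to the initiation factor TFIIF, fell by 0.32 and 0.39 on the log2 scale (adjusted p = 9.47e-06 and 7.72e-06). With GC and length offsets these were -0.20 and -0.24. POLR3F fell by 0.35 (adjusted p = 1.83e-05), with -0.19 under these offsets, so that POLR3C and POLR3F, partners in a subcomplex, went in opposite directions. Over the 10 genes, 4 rose, 5 fell and POLR3A did not pass, with a median log2 fold change of -0.19.

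Of the subunits common to all 3 nuclear enzymes, POLR2K, a small zinc-binding subunit at hg19 chromosome 8, 101162839 to 101166230, had the largest change of all 32 genes. It had 37.1, 37.3 and 36.2 CPM in siControl and 77.8, 84.2 and 76.8 CPM in siKMT9α#1. The samples of each group lay close together and the groups far apart, 2.16-fold (log2 fold change 1.11, SE 0.06, adjusted p = 1.04e-12). POLR2F fell by 0.34 (adjusted p = 0.000201), with -0.15 under GC and length offsets, and POLR2H by 0.19 (adjusted p = 0.0238), the latter with adjusted p-values of 0.059, 0.121, 0.073 and 0.129 when siControl replicate 2, siControl replicate 3, siKMT9α#1 replicate 2 or siKMT9α#1 replicate 3 was left out, and with a log2 fold change of 0.10 (adjusted p = 0.187) under GC and length offsets. POLR2E (-0.10, adjusted p = 0.211) and POLR2L (-0.04, adjusted p = 0.649) did not pass, but POLR2E was at -0.21 (adjusted p = 0.016) with library size alone and POLR2L at 0.24 (adjusted p = 0.000203) with GC and length offsets. In the 5 shared subunits, 1 rose, 2 fell and 2 did not pass.

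POLR1E, a polymerase I subunit of the heterodimer related to TFIIF and TFIIE, rose from 32.9 ± 2.25 to 48.6 ± 0.802 CPM (log2 fold change 0.56, adjusted p = 1.3e-07). The subunits shared by polymerases I and III, POLR1C and POLR1D, form the assembly platform on which the large subunits are built. POLR1C did not pass (-0.10, adjusted p = 0.173), but did with library size alone (-0.20, adjusted p = 0.00668), and it was at 0.08 (adjusted p = 0.236) with GC and length offsets. POLR1D, represented by NM_015972, had 64.1, 68.1 and 62.1 CPM in siControl and 53.7, 57.7 and 58.1 CPM in siKMT9α#1 and fell by 0.19 (SE 0.06, adjusted p = 0.00421), with 0.03 and -0.04 under length offsets and under GC and length offsets.

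The call for POLR1D depended on the transcript. Of the 32 genes, 5 had several transcripts in the table, and POLR1D was the one whose transcripts differed in direction, a comparison chosen after the values were seen. When every transcript was tested as its own row, where 76.3% of 24770 transcripts passed (37.5% higher and 38.8% lower), NM_015972 had a log2 fold change of -0.19 (adjusted p = 0.00394). NM_152705 had 0.56 (SE 0.07, adjusted p = 5.85e-07) and NM_001206559 had 0.72 (SE 0.09, adjusted p = 1.43e-07). The ratio of the counts of NM_152705 to those of NM_015972, as a percentage, was 26.0, 26.3 and 29.2% in siControl and 50.0, 44.5 and 43.0% in siKMT9α#1. The same ratio for NM_001206559 was 18.8, 16.4 and 21.3% in siControl and 38.3, 35.2 and 33.2% in siKMT9α#1. For both transcripts the groups did not overlap, and the exact permutation test gave the smallest p it allows, 0.1. Counts are listed for each transcript separately, so reads in any exons they share can enter more than 1 of them.

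Among the other polymerase II genes, POLR2D and POLR2G form the stalk that binds the emerging RNA, and both were higher. POLR2D rose by 0.56 on the log2 scale, from 61.6 ± 4.38 to 90.6 ± 5.51 CPM (adjusted p = 8.51e-08), and POLR2G by 0.22 (adjusted p = 0.00115), or 0.11 with an adjusted p of 0.063 when scaled by library size alone. POLR2C, the polymerase II counterpart of POLR1C in the assembly platform, did not pass (-0.07, adjusted p = 0.259) and was at 0.14 (adjusted p = 0.0157) with length offsets and at -0.17 (adjusted p = 0.00611) with library size alone. POLR2I, which supports transcript cleavage, had 24.6, 26.1 and 27.4 CPM in siControl and 26.2, 19.9 and 17.1 CPM in siKMT9α#1. Its groups overlapped although it passed (log2 fold change -0.33, adjusted p = 0.00984), and it did not pass without siKMT9α#1 replicate 3 (-0.18, adjusted p = 0.101), with length offsets (-0.10, adjusted p = 0.341) or with GC and length offsets (-0.04, adjusted p = 0.719). POLR2M, a polymerase II-associated protein and not a core subunit, was lower by 0.12 (adjusted p = 0.0382), a call that was lost when any library other than siKMT9α#1 replicate 2 was left out (adjusted p from 0.0752 to 0.160).

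POLR2J, the second member of the polymerase II assembly platform, lies on chromosome 7 with the near-identical copies POLR2J2 and POLR2J3, between which the counting could have split reads. POLR2J had 44.2, 47.4 and 46.7 CPM in siControl and 45.0, 43.9 and 34.7 CPM in siKMT9α#1 (log2 fold change -0.17, adjusted p = 0.0513), and it passed without siControl replicate 1, siKMT9α#1 replicate 1 or siKMT9α#1 replicate 2 (adjusted p = 0.0367, 0.0139 and 0.0353). POLR2J2 had 6.48, 9.88 and 8.73 CPM in siControl and 6.58, 6.43 and 6.33 CPM in siKMT9α#1 (log2 fold change -0.37, adjusted p = 0.0219). Its groups overlapped, and the adjusted p was 0.137, 0.0714, 0.0525 and 0.0535 without siControl replicate 2, siControl replicate 3, siKMT9α#1 replicate 2 and siKMT9α#1 replicate 3. POLR2J3 was the lowest of the 32, with 1.49, 2.10 and 2.24 CPM in siControl and 1.44, 1.10 and 2.09 CPM in siKMT9α#1 (log2 fold change -0.27, SE 0.25, adjusted p = 0.320). POLR2J4, listed in GENCODE as a long non-coding RNA, had 7.33, 7.66 and 7.59 CPM in siControl and 4.99, 5.26 and 4.60 CPM in siKMT9α#1, with no overlap (log2 fold change -0.61, SE 0.12, adjusted p = 0.000116).

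The spans of 10 of the 32 genes overlapped that of another gene, among them POLR3B with LOC100287944, POLR2B with IGFBP7, POLR2I with TBCB, POLR2J with LRWD1, POLR2C with DOK4 and POLR2J4 with UBE2D4. Whether strand was used in counting is not given in the sources used here, and the share of reads from the neighbouring genes was not tested.

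POLRMT had 40.7, 40.6 and 51.2 CPM in siControl and 42.8, 46.3 and 43.7 CPM in siKMT9α#1. All knock-down samples lay within the control range, and the log2 fold change was 0.00 (SE 0.08, 95% interval -0.16 to 0.16, adjusted p = 0.998).

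Levels per transcript length (TPM, computed from the counts and the deposited lengths) were compared between genes in siControl. The subunits of 1 enzyme differed widely in level, although the complex holds them in nearly equal numbers. In polymerase II, POLR2L was highest with a median of 479 TPM (432 to 492), followed by POLR2G with 185 TPM, POLR2C with 168 TPM, POLR2J with 101 TPM and POLR2B with 95.1 TPM, and the ranges of POLR2J and POLR2B overlapped. POLR2A was near the bottom with 37.3 TPM (36.3 to 37.4), above POLR2F with 31.9 TPM. In polymerase III, beside POLR2L, the highest were POLR1D with 169 TPM and POLR3D with 140 TPM, and the lowest were POLR3G with 19.9 TPM, POLR3B with 14.8 TPM and POLR3GL with 13.2 TPM, where the last 2 overlapped. In polymerase I, POLR1A was lowest with 11.7 TPM (10.8 to 12.3), below POLR1E with 36.6 TPM and POLR1B with 47.3 TPM.

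POLR2A served as the reference of the study's qRT-PCR, so its change was set beside 14 other genes commonly used as references. An adjusted p under 0.05 was found for 12 of these 14, of which 9 were higher and 3 lower. Of all genes tested, 75.6% passed, 37.1% higher and 38.5% lower. Ordered by the size of the log2 fold change, POLR2A was in place 3 of 15, after RPLP0 (-0.01) and SDHA (0.05), and GAPDH was at 0.21. Commonly used references were among those with the largest changes, namely PPIA with 1.81 (adjusted p = 3.23e-16), ACTB with 1.38 (adjusted p = 1.55e-14) and TFRC with 1.07 (adjusted p = 5.05e-12), while PGK1 with -0.29 (adjusted p = 1.25e-05) was among those that fell. The estimate for POLR2A depended on the scaling. It was -0.19 (adjusted p = 0.00222) with library size alone, which moved the median of all genes from -0.01 to -0.12, -0.32 (adjusted p = 3.24e-06) with length offsets and -0.29 (adjusted p = 2.2e-06) with GC and length offsets, and under each of these 4 of the 14 references had a smaller change. Without siKMT9α#1 replicate 3 it was -0.13 (adjusted p = 0.0286).

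**Figure D4:**
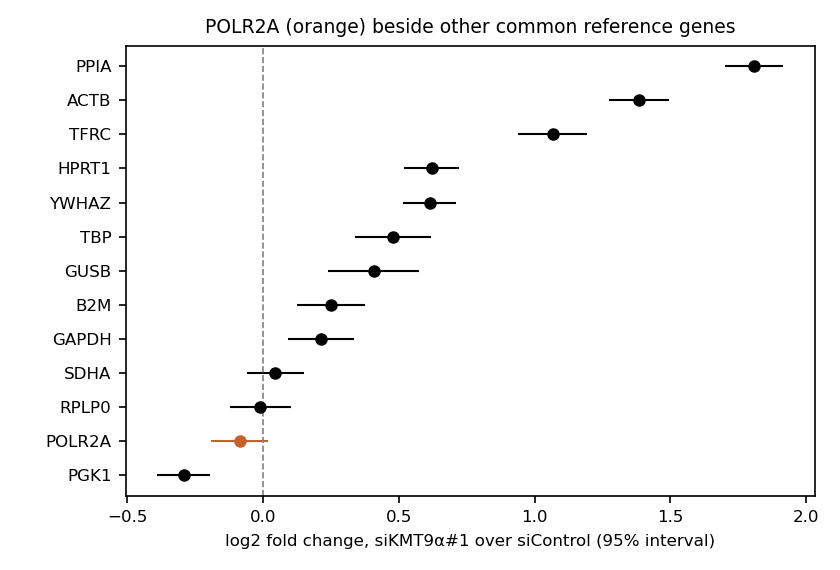
Log2 fold change, siKMT9α#1 over siControl, with its 95% interval for POLR2A (orange) and 12 of the 14 other common reference genes (black). POLR2A at -0.09 lies close to 0 beside RPLP0 and SDHA, while ACTB and PPIA lie at 1.38 and 1.81.

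Dividing by POLR2A within each sample, as the qRT-PCR did, left the direction of the genes measured in that way as it was with CPM. N6AMT1 over POLR2A fell by 1.70 on the log2 scale, beside -1.77 for N6AMT1 in CPM. YES1, a Src family kinase, fell by 1.44 (CPM -1.52) and SMARCA2, a chromatin remodelling ATPase, fell by 0.53 (CPM -0.61). TIMP2, an inhibitor of metalloproteinases, was higher by 1.15 (CPM 1.06) and SOD2, the mitochondrial superoxide dismutase, by 0.83 (CPM 0.74). The groups did not overlap for any of the 5, and the exact permutation p was 0.1 for each.

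The remaining genes of the transcription machinery were counted in lists of known factors, to be read beside the 75.6% of all genes that passed. Of 4 polymerase I or III subunits that carry other symbols, CRCP, a polymerase III subunit of the stalk, rose by 0.33 (adjusted p = 4.18e-05), CD3EAP, the partner of POLR1E, fell by 0.34 (adjusted p = 1.62e-05), TWISTNB fell by 0.24 (adjusted p = 0.000168) and ZNRD1 did not pass (-0.15, adjusted p = 0.0774). POLR1E and CD3EAP, which form a heterodimer, thus went in opposite directions. Of 8 polymerase I factors of initiation and termination, 5 rose and 3 did not pass. The lowest, TAF1A, was at 0.04 (unadjusted p = 0.575 by edgeR), so that no gene of the list was below 0 with TMM scaling. UBTF, at 0.05, turned to -0.05 with library size alone and to -0.07 with GC and length offsets, and TAF1A to -0.06 with library size alone. Those that rose included TBP, the TATA-binding protein (0.48, adjusted p = 3.02e-06), and TAF1C, a subunit of the promoter selectivity factor (0.34, adjusted p = 0.000432).

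Of 18 polymerase II general factors, 8 rose and 7 fell. GTF2E2, a subunit of TFIIE, rose from 27.8 ± 0.161 to 61.7 ± 2.13 CPM (log2 fold change 1.15, adjusted p = 8.81e-13) and GTF2H1, a subunit of TFIIH, by 0.66 (adjusted p = 5.17e-10). The other TFIIH genes were divided. Those that fell most were MNAT1, from 52.7 ± 1.67 to 23.4 ± 1.49 CPM (-1.18, adjusted p = 3.83e-12), and ERCC2, a helicase (-0.96, adjusted p = 8.69e-08). GTF2H5, GTF2H3 and ERCC3 fell as well. CDK7 (0.20, adjusted p = 0.00158) and GTF2H4 (0.30, adjusted p = 0.0108) rose, while CCNH and GTF2H2 did not pass. With library size alone CDK7 was at 0.09 (adjusted p = 0.102) and GTF2H4 at 0.20 (adjusted p = 0.0839). With GC and length offsets CDK7 was at 0.42 and GTF2H4 at 0.54, and CCNH passed at 0.40 (adjusted p = 1.96e-09). GTF2H3 was at -0.11 (adjusted p = 0.13) under these offsets. Of 30 elongation factors and enzymes that act on the carboxy-terminal domain of POLR2A, 13 rose and 7 fell. The negative elongation factor NELF was divided, with NELFCD higher by 1.53 (adjusted p = 2.61e-12) and NELFE lower at -0.62 (adjusted p = 7.6e-09). ELL2, an elongation factor, rose by 1.47 (adjusted p = 8.88e-15), and PAF1, which gives the PAF complex its name, fell by 0.83 (adjusted p = 1.35e-11). The PAF complex was divided too. CTR9 (0.765, adjusted p = 2.23e-11), RTF1 (0.65, adjusted p = 1.98e-08) and CDC73 (0.31, adjusted p = 5.04e-05) rose, and LEO1 did not pass (-0.07, adjusted p = 0.202).

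Of 16 polymerase III factors, which are initiation factors and the repressor MAF1, 5 rose, led by GTF3C1, the largest subunit of TFIIIC (0.69, adjusted p = 4.45e-09), and SNAPC4 (0.50, adjusted p = 0.000191). MAF1 was among the 5 at 0.16 (adjusted p = 0.0149), or 0.06 (adjusted p = 0.369) with library size alone. A further 6 fell, led by BRF2, used at promoters of the U6 type, from 75.3 ± 3.02 to 42.1 ± 2.83 CPM (-0.85, adjusted p = 1.54e-10), and SNAPC2 (-0.45, adjusted p = 0.000102), which was at -0.14 (adjusted p = 0.0934) with GC and length offsets. Of 8 genes of mitochondrial transcription, 5 fell and the highest, MTERF3, was at 0.02 (unadjusted p = 0.729 by edgeR), so that none rose with TMM scaling. MTERF3 was at 0.25 (adjusted p = 0.000956) with GC and length offsets. The falls were led by TEFM, the elongation factor of POLRMT, at -0.57 (adjusted p = 1.96e-07) and MTERF2 at -0.56 (adjusted p = 9.57e-05). TFAM, which packages mitochondrial DNA and starts its transcription, was among the 5 at -0.12 (adjusted p = 0.0285) but was at 0.12 (adjusted p = 0.0222) with GC and length offsets, under which TFB2M (-0.13 with TMM) was at 0.06 (adjusted p = 0.272) and MTERF1 (-0.28 with TMM) at -0.09 (adjusted p = 0.276). The 18 polymerase assembly genes held 6 that rose and 9 that fell. Examples were PDRG1 (0.82, adjusted p = 1.28e-10) and RPAP2 (0.47, adjusted p = 4.32e-06), and in the other direction PIH1D1 (-0.73, adjusted p = 8.22e-09) and PFDN6 (-0.73, adjusted p = 1.55e-09).

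Since the libraries could differ in how they captured long or GC-rich transcripts, each of the 32 genes was also fitted with offsets for GC content and length per sample. Of the 22 genes that passed, 15 kept their direction and an adjusted p under 0.05 under all 19 alternatives computed, among them POLR1A, POLR1E, POLR2D, POLR2K, POLR3C, POLR3G and POLR3K on the higher side and POLR2F, POLR2J4, POLR3B, POLR3D, POLR3E, POLR3F and POLR3GL on the lower side. The other 7 (POLR1D, POLR2B, POLR2G, POLR2H, POLR2I, POLR2J2 and POLR2M) did not. Of the 10 genes that did not pass, 2 (POLR2J3 and POLRMT) did not pass under any of the 19.

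**Figure D5:**
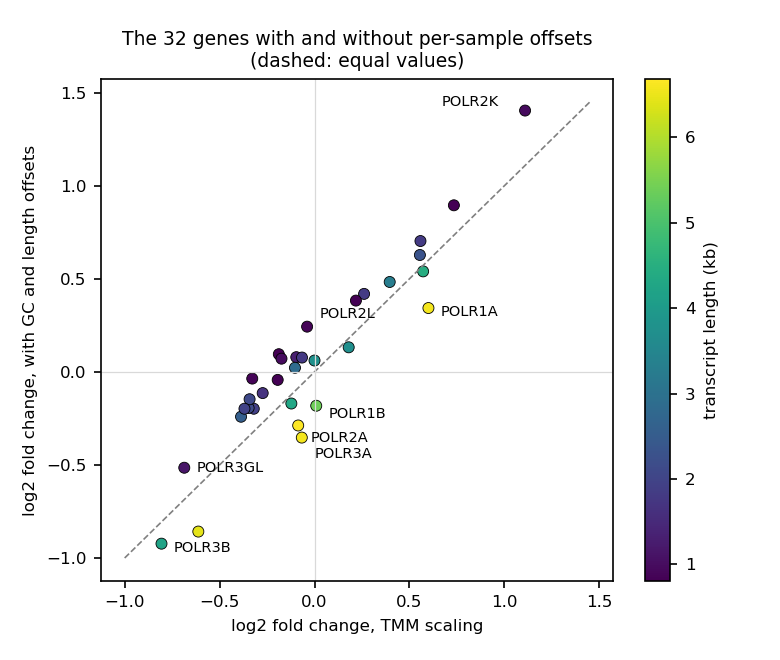
Log2 fold change of the 32 genes with TMM scaling (horizontal axis) against that with GC and length offsets per sample (vertical axis), coloured by transcript length in kb, with equal values on the dashed line. Long transcripts such as POLR2A (-0.09 and -0.29) and POLR3A (-0.07 and -0.35) lie below the line, and short ones such as POLR2L (-0.04 and 0.24) and POLR2K (1.11 and 1.40) above it.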

How the data were processed

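RNA-Seq was analysed for 6 samples of A549 cells, 3 with siControl and 3 with siKMT9α#1, grouped by the sample labels. The siRNA number, dose and time are from the study's methods. Per the study's methods and the submitters' processing notes, the authors aligned reads to hg19 with STAR, counted them with HOMER and tested them with edgeR. The authors deposited estimated counts per RefSeq transcript that were not normalized, every one a multiple of 0.5 and 36.4% of them not whole numbers. The table also holds a fold change (a ratio) and p-values that the authors deposited from their own comparison, and these were not used. HOMER's counting options are not given in the sources used here.

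Of 38767 rows, 1182 without a symbol and counts were left out, which left 37585 transcripts of 23180 symbols. After rounding to whole numbers and TMM scaling, counts were filtered with filterByExpr and tested with the quasi-likelihood F test of edgeR 4.0.16 in R 4.3.3 with Benjamini-Hochberg adjustment over 13877 genes. An adjusted p under 0.05 was called. The common biological coefficient of variation of the fit came to 4.47%. The median SE of a log2 fold change was 0.08 for all genes and 0.06 for the 32. Totals per sample were 18238037, 15551780 and 18568634 for siControl and 13740098, 14201989 and 19832394.5 for siKMT9α#1. Single ratios were tested with exact two-sided permutation tests. Alternatives were RLE, library size alone, other filters, DESeq2 1.42.0, the likelihood-ratio test, other choices of transcript, spline offsets for GC content and length, a replicate block and leaving out each library. The code was tested on simulated data.

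The genes, lists and comparisons were chosen with earlier results of these data known. The 32 genes are named, except that some items are not reported here, although they enter the fits and counts. Values per sample are given for the largest and second largest subunits, the paralogs, POLRMT and the 3 genes that changed most each way. For each list of factors, the 2 called genes with the highest and the 2 with the lowest log2 fold change are given. A few further genes were given values per sample after these were seen.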

Additional observations from a re-analysis of the deposited data

How the results depend on the processing

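The number of the 32 genes with an adjusted p under 0.05 was 22 and stayed between 19 and 26 under all 19 alternatives. At the threshold of the study it was 4 (3 higher, 1 lower). It was 2 (1 higher) with library size alone, 8 (7 higher) without a filter, 7 (6 higher) with DESeq2, 9 (6 higher, 3 lower) with the likelihood-ratio test and 7 (6 higher) with length offsets. The higher genes were 5 with every transcript as its own row (15.5% of all transcripts were higher there, 27.3% in either direction) and 5 with GC and length offsets. Leaving out single libraries gave 1 to 6 in all, 1 to 5 higher and 0 to 1 lower. The share of all genes was counted only for the main fit, library size alone, GC and length offsets and every transcript as its own row. For the other alternatives, whether a shift was particular to the 32 genes was not tested.

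The median log2 fold changes were -0.09 for all 32 genes, 0.56 for polymerase I, -0.15 for polymerases I and III, -0.12 for polymerase II, -0.10 for the subunits of all 3 enzymes and -0.19 for polymerase III. With library size alone they were -0.20, 0.45, -0.25, -0.23, -0.21 and -0.30 in this order. With length offsets they were -0.003, 0.375, 0.084 and -0.059 for the first 4 and -0.16 for polymerase III, and with GC and length offsets 0.041, 0.343, 0.018, -0.036 and, for the subunits of all 3 enzymes, 0.095. With the longest transcript, polymerases I and III had 0.31, and leaving out single libraries gave -0.16 to -0.11 there. For the subunits of all 3 enzymes, leaving out single libraries gave -0.16 (without siKMT9α#1 replicate 1) to 0.005 (without siKMT9α#1 replicate 3).

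POLR2A was at -0.19 with library size alone, -0.32 with length offsets, -0.29 with GC and length offsets and -0.127 to -0.049 when single libraries were left out. POLR1D turned to 0.72 with the longest transcript and 0.027 with length offsets. Under length offsets POLR2H turned to 0.032, POLR2C to 0.14, POLR1B to -0.15 and POLR2L to 0.19, and under GC and length offsets POLR2H turned to 0.10, POLR1B to -0.18 and POLR2L to 0.24. With library size alone, 5 polymerase II general factors (8 before) and 3 assembly genes (6 before) were higher. The cause of these changes was not tested. All 9 ratios within a sample kept their direction with the longest transcript and when each library was left out, and offsets were not applied to them.

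Deviations from the group means were not shared by samples of equal replicate number (correlations of -0.06, 0.01 and -0.07), and nothing states that the numbers pair them. With the replicate block, 21 of the 32 genes were called and 1 passed the threshold of the study (1 higher, 0 lower). With the replicate block and GC and length offsets together, 11 passed it (8 higher, 3 lower), the medians were 0.041, 0.343, 0.019, -0.035 and 0.096 in the order above, POLR2A was at -0.29, POLR2H at 0.10, POLR1B at -0.18 and POLR2L at 0.24. Depth limited POLR2J3 most, with an SE of 0.25 on the log2 scale.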
